A study of Mus musculus with 36 samples.

Results

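The interferon-induced transmembrane genes Ifitm1, Ifitm2, Ifitm3 and Ifitm6 were followed through all 36 libraries of the series. They were taken from the FPKM table by gene symbol, and they are 4 of its 27562 genes, each with 1 row. RNA had been sequenced from alveolar macrophages (AΦ) and monocytes that were flow sorted from mouse lungs, 18 libraries of each cell type, with 3 biological replicates in each of 12 groups. The mice were male chimeras whose chests had been shielded during irradiation. C57BL/6J hosts carrying CD45.2, which were also given busulfan, received marrow from congenic donors carrying CD45.1, so that every group consisted of such transplanted animals, the controls included. They then breathed filtered air (FA) or concentrated fine particulate matter (PM2.5) for 4-weeks or 32-weeks.

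The 6 AΦ groups were tissue-resident AΦ (TR-AΦ, CD45.2) of FA and PM2.5 mice at 4-weeks and at 32-weeks, and bone marrow-derived AΦ (BM-AΦ, CD45.1) of FA and PM2.5 mice at 32-weeks. The 6 monocyte groups were CD45.2 monocytes of both exposures at 4-weeks, and monocytes of either origin and both exposures at 32-weeks. At 32-weeks the labels tell the origins apart by a 1 or a 2, which was read as CD45.1 or CD45.2 by the key given for AΦ in the study's supplement, so the origin of the monocytes of that time rests on this reading. Monocytes were gated as cells without Ly6G and MHC II, low in CD64 and high in CD11b. CD45.2 marks cells of the host, so CD45.2 monocytes were cells that the transplant had not replaced. BM-AΦ were measured at 32-weeks and have no counterpart at 4-weeks. By the study's description the cell types and origins of an exposure and time were sorted from the lungs of the same few mice, so libraries set against each other across cell types or origins can share animals. The labels do not say which do, and the 18 libraries of a cell type are not 18 separate mice.

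IFITM proteins are small membrane proteins that hinder the fusion of enveloped viruses with the membranes of the cell. IFITM3 sits mainly in endosomes and lysosomes and is best known for limiting influenza virus in the lung, IFITM2 is found in similar compartments, and IFITM1 lies more at the cell surface. Ifitm6 is a mouse gene expressed in myeloid cells whose role is less settled. Interferons raise the transcription of Ifitm1, Ifitm2 and Ifitm3 through response elements near their starts, and many cells also make them without added interferon.

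All 4 genes lie in a cluster on chromosome 7. By the GENCODE annotation of GRCm38, the assembly also named mm10 to which the authors aligned, Ifitm2 (ENSMUSG00000060591.9) runs from 140954837 to 140955987 on the minus strand. Ifitm1 (ENSMUSG00000025491.14) follows from 140967221 to 140969825 and is the member on the plus strand. Ifitm3 (ENSMUSG00000025492.6) spans 141009586 to 141010770, and Ifitm6 (ENSMUSG00000059108.4) spans 141015699 to 141017924, both on the minus strand. Ifitm2 and Ifitm3 have 1 annotated transcript of 2 exons each, and Ifitm1 and Ifitm6 have 3 transcripts each. The deposited table gives Ifitm2 a wider interval that it shares with Ifitm5 and with a transcript reading through both, so the value of Ifitm2 depends on how fragments were divided among these overlapping genes.

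The members resemble each other closely enough for reads to be shared in places. Over aligned bases of the coding sequence, Ifitm1 was 82.1% identical to Ifitm2 and 82.1% identical to Ifitm3, Ifitm2 was 80.9% identical to Ifitm3, and Ifitm6 was between 65.7% and 68.8% identical to the others. Ifitm2 and Ifitm3 transcripts share an unbroken run of 69 bases. Of all windows of 50 bases in its transcripts, Ifitm3 shared 5.56% with another member, Ifitm2 3.3%, Ifitm1 1.42% and Ifitm6 none. Counting every annotated gene, the shared part rose to 48.5% for Ifitm2, where the read-through transcript and several pseudogenes or predicted genes match, and to 10.0% for Ifitm3, while no window of Ifitm6 matched any other gene. How the authors' software divided shared reads was not tested, and the values of Ifitm2 are the least certain for this reason.

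The stretches upstream of the RefSeq starts of the 4 genes are shown because the members moved together between cell types. They come from RefSeq promoter windows of GRCm38.p6 and stop before the first annotated transcript start that lies inside the window. For Ifitm1 and Ifitm6 the stretch lies within the gene, because other annotated transcripts start further upstream. Those starts are at 140967221 for Ifitm1 and at 141017558 and 141017924 for Ifitm6, and their surroundings were not searched. Letters in capitals mark matches on either strand to 4 motifs, an interferon-stimulated response element core of 2 GAAA blocks parted by any 2 bases, an interferon-gamma activated site written TTCNNNGAA, a PU.1 site written GAGGAAGT and a TATA box written TATAAA.
Ifitm1 upstream stretch, chr7:140967826-140968027, plus strand: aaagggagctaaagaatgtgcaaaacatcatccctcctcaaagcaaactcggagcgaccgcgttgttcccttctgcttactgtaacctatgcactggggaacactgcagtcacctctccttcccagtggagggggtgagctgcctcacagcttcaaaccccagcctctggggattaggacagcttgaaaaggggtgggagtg
Ifitm2 upstream stretch, chr7:140955988-140956211, minus strand: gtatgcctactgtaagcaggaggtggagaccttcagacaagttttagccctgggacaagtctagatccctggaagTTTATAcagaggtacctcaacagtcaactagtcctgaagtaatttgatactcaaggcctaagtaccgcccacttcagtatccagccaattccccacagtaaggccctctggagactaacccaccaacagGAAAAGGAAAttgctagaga
Ifitm3 upstream stretch, chr7:141010771-141010994, minus strand: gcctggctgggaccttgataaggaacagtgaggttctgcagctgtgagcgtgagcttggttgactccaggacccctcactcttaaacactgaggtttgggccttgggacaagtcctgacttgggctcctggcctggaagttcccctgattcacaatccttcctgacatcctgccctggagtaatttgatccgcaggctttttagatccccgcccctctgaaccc
Ifitm6 upstream stretch, chr7:141016909-141017142, minus strand: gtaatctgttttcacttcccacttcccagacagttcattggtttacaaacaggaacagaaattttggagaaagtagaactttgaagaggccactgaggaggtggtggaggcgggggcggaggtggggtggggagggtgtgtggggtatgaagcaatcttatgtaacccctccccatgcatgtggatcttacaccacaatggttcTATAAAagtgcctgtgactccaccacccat

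Ifitm2 held 1 match to the response element core, 46 bases before its RefSeq start, and Ifitm3 held 2 matches just after its RefSeq start. The Ifitm3 stretch from base 3 to base 29, chr7:141010716-141010742 on the minus strand, is 27 bases long, and its capitals mark both core matches with an interferon-gamma activated site match that overlaps the second of them.
Ifitm3 element: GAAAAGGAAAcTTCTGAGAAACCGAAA
Ifitm6 held no match to the core, a TATA box match 46 bases before its RefSeq start, and an interferon-gamma activated site match that began 10 bases before it. Of the 32851 RefSeq promoter windows, 3.44% held the core, 8.3% the interferon-gamma activated site, 3.2% the PU.1 letters and 13.6% the TATA box letters. No window of the 4 members held the PU.1 letters, and the Ifitm1 window held none of the 4 motifs. These matches describe letters within one window per gene, and the RNA data do not bear on whether any of them is used.

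Expression was given by the authors as FPKM (fragments per kilobase of transcript, scaled to the number of mapped fragments), a unit that accounts for transcript length and depth, so that levels may be set side by side between genes. FPKM are not counts, and how many reads stand behind a level is not known. Summed over all genes the libraries reached between 1839577 and 3339020. The labelled cell types held their markers. The 13 AΦ markers in the table summed to between 7237 and 14972 FPKM in AΦ and to between 264 and 1695 in monocytes, and the 12 monocyte markers summed to between 113 and 604 in AΦ and to between 1524 and 4867 in monocytes. In bulk RNA of sorted cells, fewer cells of a type and less RNA per cell cannot be told apart. A pair of libraries stood apart among AΦ. In replicate 2 of the 4-weeks TR-AΦ, of FA and of PM2.5 mice, the monocyte marker sum was 545 and 604 against 216 to 351 in the other 4 libraries of that time, and the results on the members that rest on them are given with and without them.

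In lung monocytes Ifitm3, Ifitm2 and Ifitm6 were abundant transcripts and Ifitm1 was lower, and in AΦ the members were low or listed at 0, apart from Ifitm2. Ifitm3 in monocytes had a lowest value of 570 FPKM, a median of 1128 and a highest of 1407 over the 18 libraries, and by its mean of 1063 ± 257 (SD, n = 18 libraries) it ranked 252 among the 27562 genes. Ifitm2 ranked 322, Ifitm6 639 and Ifitm1 2420 there, and in AΦ the highest rank of a member was 2014, for Ifitm2. Ifitm2 ranged from 436 to 1178 FPKM with a median of 678, Ifitm6 from 84.8 to 477 with a median of 223, and Ifitm1 from 13.2 to 78.7 with a median of 30.7. The order Ifitm3, Ifitm2, Ifitm6, Ifitm1 from high to low held in 18 of 18 monocyte libraries, although Ifitm3 exceeded Ifitm2 by a factor of as little as 1.02 in one of them (median 1.47). In AΦ, Ifitm2 was the highest member in 18 of 18 libraries, at 19.0 to 95.2 FPKM with a median of 28.97. Ifitm3 ran from 0 to 62.8 FPKM with a median of 3.66, Ifitm6 from 0 to 9.07 with a median of 0.215, and Ifitm1 from 0 to 2.15. Without the replicate 2 libraries named above, the highest AΦ values were 54.0 FPKM for Ifitm2, 9.43 for Ifitm3, 1.55 for Ifitm6 and 2.15 for Ifitm1. A value of exactly 0 can also stand for an estimate that failed, so such libraries are described as listed at 0, which held for Ifitm1 in 10, Ifitm6 in 9 and Ifitm3 in 2 of 18 AΦ libraries. Below Ifitm2 the order of the members in AΦ was not the same in all libraries, and Ifitm1 and Ifitm6 were too low there to be ranked.

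**Figure D1:**
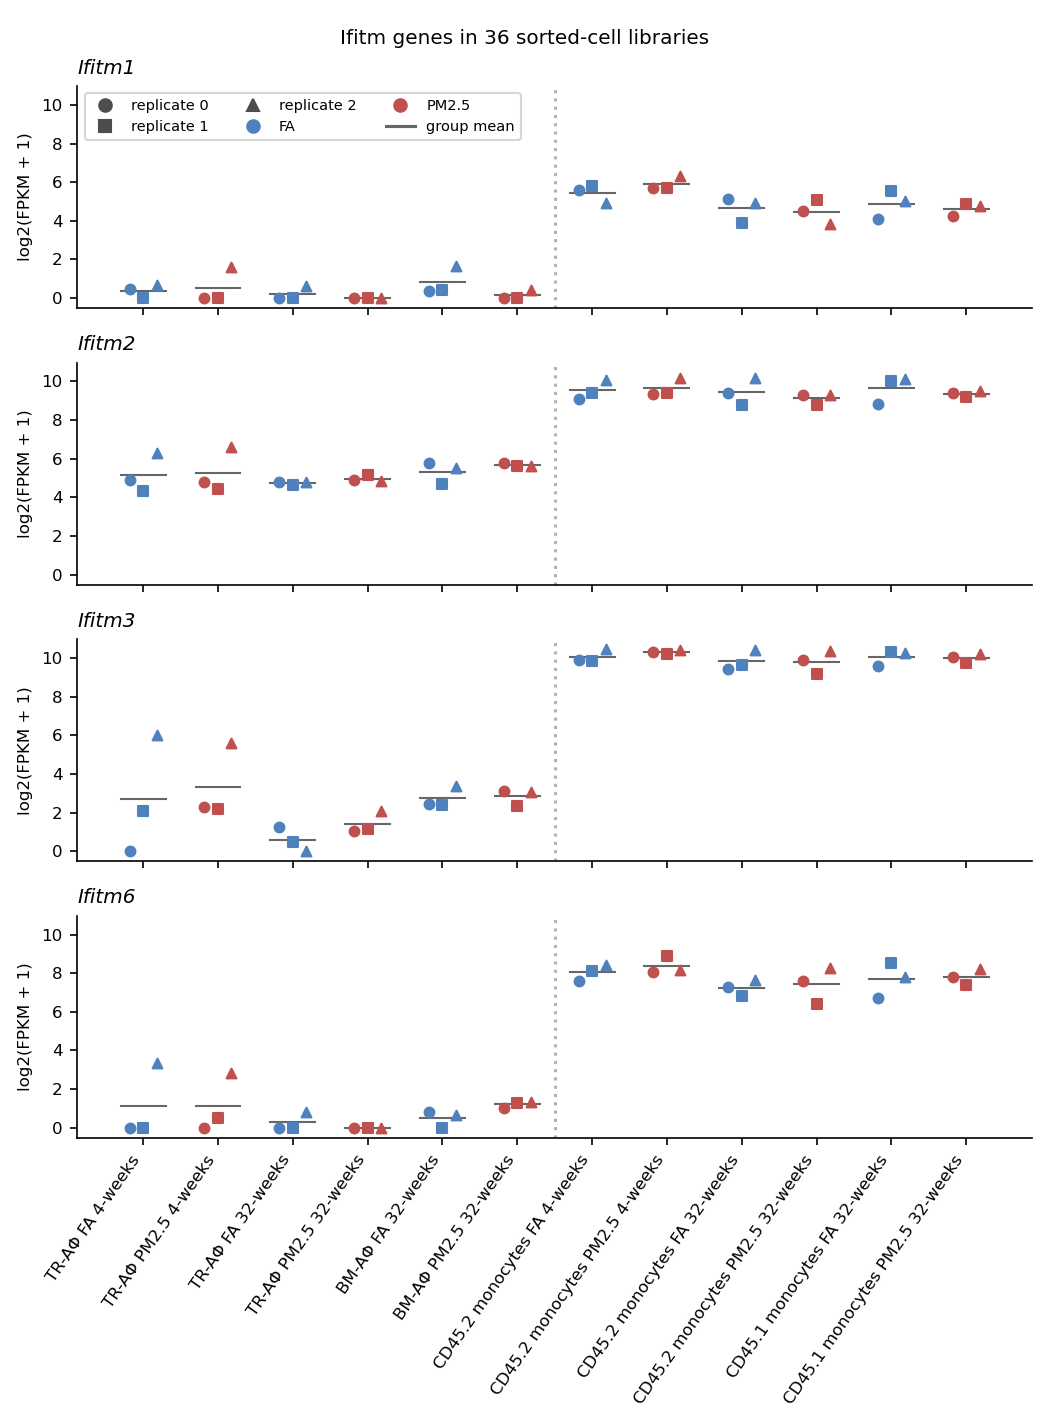
Level of each Ifitm gene on the log2(FPKM + 1) scale in each of 36 libraries (points, shaped by replicate number and coloured by exposure), with the mean of each group of 3 as a line. Every monocyte library lies above every AΦ library for all 4 genes, and within AΦ the triangles of 4-weeks TR-AΦ stand above their groups.

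All 4 members were lower in AΦ than in monocytes at 4-weeks (CD45.2), at 32-weeks (CD45.2) and at 32-weeks (CD45.1), and in none of these comparisons did the 6 AΦ libraries overlap the 6 monocyte libraries. At 4-weeks TR-AΦ held Ifitm3 at 0, 3.15 and 62.8 FPKM in FA mice and 3.83, 3.49 and 47.1 in PM2.5 mice, and CD45.2 monocytes held it at 964, 908 and 1407 in FA mice and 1249, 1183 and 1358 in PM2.5 mice. Even the highest AΦ library, at 62.8 FPKM, lay far below the lowest monocyte library, at 908. The log2 fold change of Ifitm3 was -7.17 (SE 0.62, adjusted p = 2.09e-10, limma with Benjamini-Hochberg adjustment).

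Ifitm6 gave a similar picture. It was at 0, 0 and 9.07 FPKM in TR-AΦ of FA mice and at 0, 0.429 and 6.16 in those of PM2.5 mice at 4-weeks, against 192, 276 and 337 and then 261, 477 and 288 in the monocytes. The log2 fold change was -7.09 (SE 0.48, adjusted p = 1.32e-12). Ifitm1 was at 0.394, 0 and 0.575 FPKM in TR-AΦ of FA mice and at 0, 0 and 2.06 in those of PM2.5 mice, against 47.2, 55.1 and 29.6 and then 52.0, 52.0 and 78.7 in the monocytes, with a log2 fold change of -5.23 (SE 0.30, adjusted p = 6.73e-14). Ifitm2 kept the highest level in AΦ and had the smallest gap. It was at 28.9, 19.0 and 77.1 FPKM in TR-AΦ of FA mice and at 26.8, 20.3 and 95.2 in those of PM2.5 mice, against 550, 683 and 1080 and then 659, 681 and 1178 in the monocytes, with a log2 fold change of -4.38 (SE 0.33, adjusted p = 1.66e-11).

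At 32-weeks the gap was found again in cells of both origins. In TR-AΦ Ifitm3 was at 1.40, 0.385 and 0 FPKM in FA mice and at 1.07, 1.23 and 3.19 in PM2.5 mice, and CD45.2 monocytes held 696, 791 and 1350 and then 941, 570 and 1327. On the log2(FPKM + 1) scale this was the widest gap of any member, with a log2 fold change of -8.81 (SE 0.62, adjusted p = 4.62e-12). By the ratio of mean FPKM, AΦ over monocytes, Ifitm6 lay lower, at 0.000739 against 0.00128 for Ifitm3. Ifitm6 was listed at 0 in 5 of 6 of these AΦ libraries. For the same cells the log2 fold changes were -7.20 for Ifitm6, -4.46 for Ifitm1 and -4.44 for Ifitm2. Between BM-AΦ and CD45.1 monocytes they were -7.24 for Ifitm3, -6.90 for Ifitm6, -4.27 for Ifitm1 and -4.03 for Ifitm2, with adjusted p of 2.04e-10 or less. The exact two-sided permutation test over 6 against 6 libraries gave p = 0.00216 for each member in each comparison, the smallest it allows.

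These calls stand against a background in which many genes differed. Of 13307 genes tested, 48.2% passed the threshold of an adjusted p of 0.05 at 4-weeks, 47.3% at 32-weeks in CD45.2 cells and 50.9% in CD45.1 cells, and groups did not overlap for 29.8%, 26.9% and 30.8% of them. By size the members were among the genes with the lowest log2 fold changes. Counted from the lowest log2 fold change of all 13307 genes, Ifitm3 ranked 4 and Ifitm6 ranked 5 at 4-weeks, 3 and 8 at 32-weeks in CD45.2 cells, and 7 and 11 in CD45.1 cells, while Ifitm1 and Ifitm2 ranked between 30 and 99. Fold changes on the log2(FPKM + 1) scale understate the change of genes that are low in one group, which holds for Ifitm1, Ifitm3 and Ifitm6 in AΦ, so their order among each other depends on the value added. Without the 2 replicate 2 libraries of TR-AΦ the log2 fold changes at 4-weeks were -8.56 for Ifitm3, -8.07 for Ifitm6, -5.56 for Ifitm1 and -4.99 for Ifitm2, and 4 of 4 members passed the threshold.

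**Figure D2:**
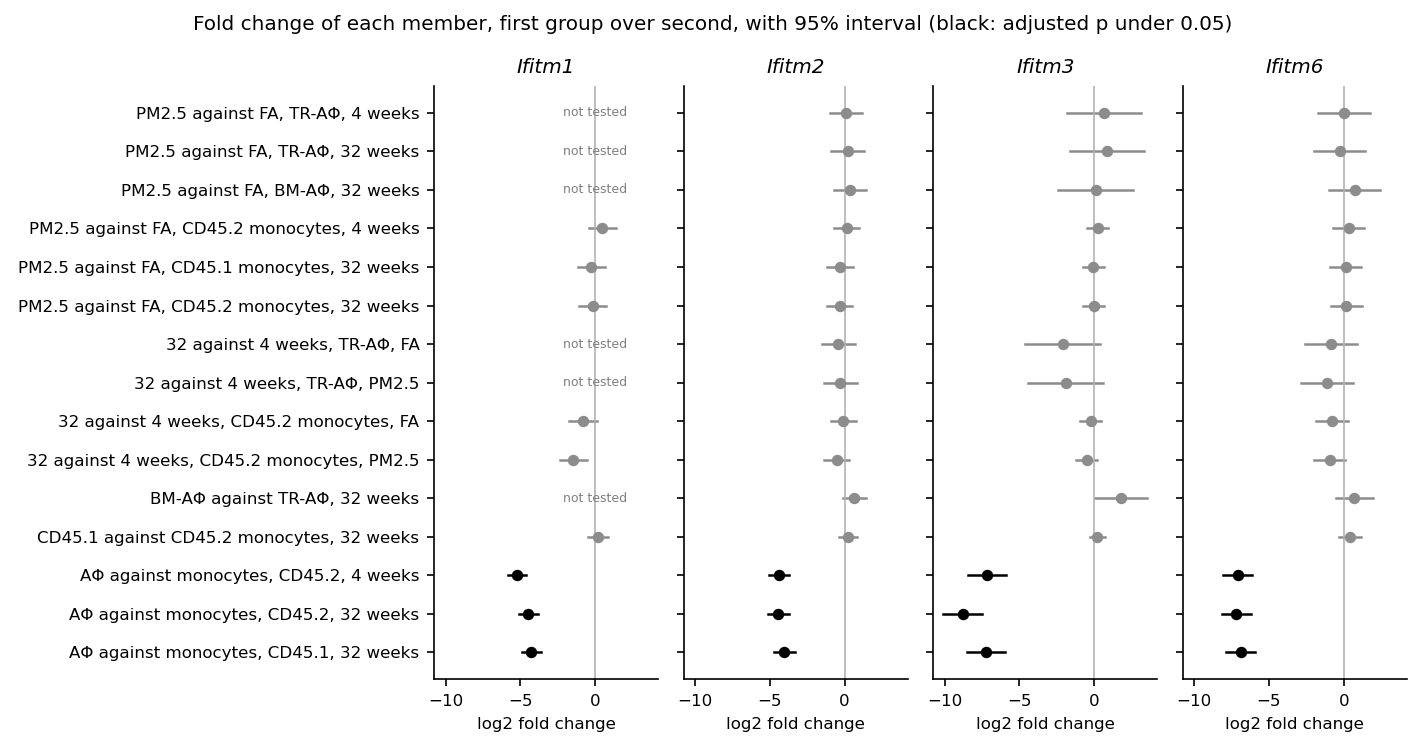
Log2 fold change of each member in 15 comparisons (points) with the 95% interval from limma (bars), black where the adjusted p was under 0.05 and grey otherwise. The 3 comparisons of AΦ with monocytes are black for all 4 genes, between -8.81 and -4.03, and no other point is black. Ifitm1 fell below the filter in the model of AΦ libraries and was not tested there.

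The make-up of the family transcript differed between the cell types as well. Of the summed FPKM of the 4 members, Ifitm3 made up 51.6% ± 4.27 (SD, n = 18 libraries) in monocytes, Ifitm2 35.6% ± 4.79, Ifitm6 11.1% ± 3.09 and Ifitm1 1.70% ± 0.765. In AΦ Ifitm2 alone made up 86.4% ± 12.2 (SD, n = 18 libraries), and the share of Ifitm3 lay between 0% and 42.0% of the sum. The Ifitm2 share did not overlap between cell types, with a lowest value of 51.6% in AΦ and a highest of 43.5% in monocytes. The 51.6% and the 42.0% both belong to replicate 2 of the 4-weeks TR-AΦ of FA mice, and over the 16 AΦ libraries without replicate 2 of either exposure at that time the Ifitm2 share was 90.0% ± 6.13 (SD, n = 16 libraries) with a lowest value of 78.5%, and the highest Ifitm3 share was 16.7%. The family sum itself was 2079 FPKM ± 553 in monocytes and had a median of 30.8 FPKM in AΦ, with a range from 22.2 to 151. Whatever part of the Ifitm2 value belongs to the overlapping transcripts enters these shares too.

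**Figure D3:**
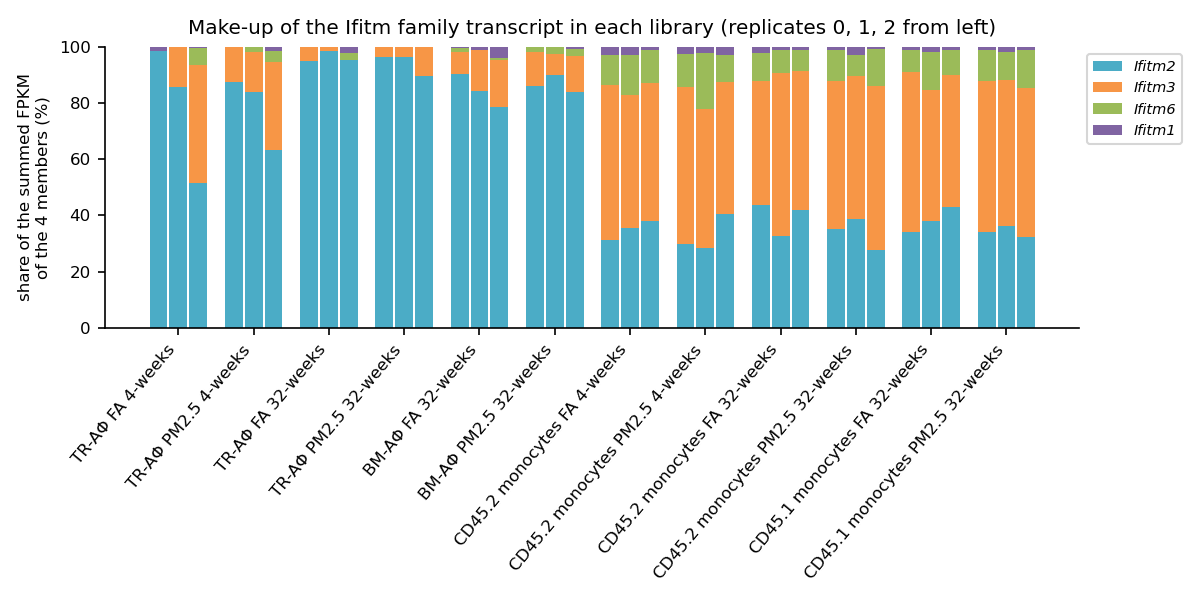
Share of each member in the summed FPKM of the 4 Ifitm genes, in percent, 1 bar per library in groups of replicates 0, 1 and 2. Ifitm2 fills between 51.6% and 98.7% of the AΦ bars, and Ifitm3 is the largest block of each monocyte bar, between 44.4% and 58.3%.

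Genes beside the cluster went both ways between the cell types. Of 28 other genes within 200 kb of a member, 11 passed the filter. At 4-weeks 3 of them were lower and 3 higher in TR-AΦ than in CD45.2 monocytes, with the same counts at 32-weeks. Of all genes tested, 48.2% and 47.3% were called at these times, and 25.5% and 23.7% were called lower. Ifitm5, the family gene known from bone, lies next to Ifitm2 in the shared interval and was lower in AΦ, with log2 fold changes of -2.91 and -2.95. It was listed at 0 in 12 of 12 TR-AΦ libraries and lay between 3.39 and 10.8 FPKM in monocytes. Like that of Ifitm2, the value of Ifitm5 depends on how fragments of the shared interval were divided, which was not tested. Athl1 on the side away from Ifitm2 was lower by less (-1.48 at 4-weeks, -0.58 at 32-weeks). On the other flank the processed pseudogene RP23-179K7.3 was lower (-0.60 and -0.83), and Rnh1, which encodes the ribonuclease inhibitor, was higher in AΦ (0.86 and 1.10), as was Ptdss2, a phosphatidylserine synthase (0.72 and 0.46). The remaining called gene was Ric8a at 4-weeks (0.32) and Psmd13, a proteasome subunit, at 32-weeks (0.43), both higher. The tested genes outside the family lay between -1.48 and 1.10.

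**Figure D4:**
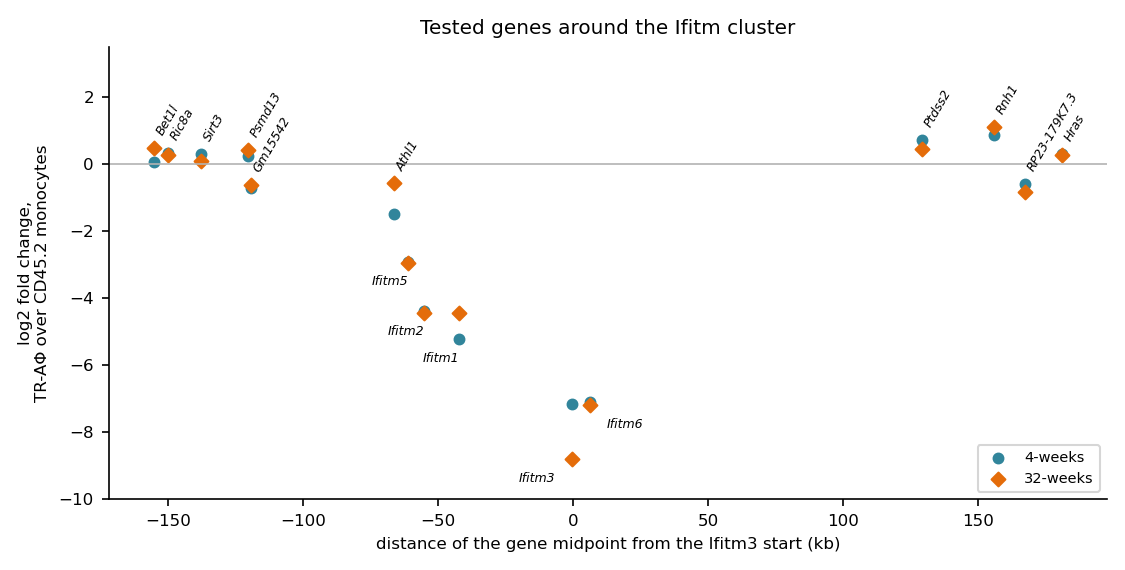
Log2 fold change of TR-AΦ over CD45.2 monocytes at 4-weeks (circles) and 32-weeks (diamonds) for the members and the 11 other tested genes, against the distance of each gene's midpoint from the Ifitm3 start in kb. The 5 Ifitm genes lie between -2.91 and -8.81, and the genes around them lie between -1.48 and 1.10.

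Other genes of the CD225 family did not move as 1 group. Of 9 listed, 6 were in the table and 2 passed the filter, Ifitm5 as given above and Ifitm10. Ifitm10, which lies apart from the cluster on the same chromosome and is not known as an interferon target, had the opposite direction and was higher in AΦ in all 3 comparisons. It ranged from 4.32 to 29.1 FPKM in AΦ and from 0 to 5.95 in monocytes, with log2 fold changes of 3.07 (SE 0.34, adjusted p = 1.64e-08) at 4-weeks, 3.3 in CD45.2 cells at 32-weeks and 3.17 in CD45.1 cells. Its 5.95 FPKM belonged to replicate 1 of CD45.2 monocytes of PM2.5 mice at 32-weeks, the monocyte library in which the AΦ markers summed to 1695 FPKM. The part of that signal in the Ifitm10 value was not tested.

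Most interferon-induced genes tested were lower in AΦ too. Of 27 interferon-induced genes, chosen as textbook targets without the Ifitm genes, 25 were tested and 24 were lower in AΦ at 4-weeks, 22 at 32-weeks in CD45.2 cells and 21 in CD45.1 cells, and none was higher. The share of all genes called lower was 25.5%, 23.7% and 23.8%. Their median log2 fold changes were -2.34, -1.81 and -1.89, against -0.02, 0.00 and 0.03 over all genes tested. The genes of this list with the lowest p at 4-weeks were Oas3 (-3.98), an oligoadenylate synthetase, Ly6e (-2.64), a membrane protein that limits virus entry, and Ifi27l2a (-3.98). No gene of the list fell as far as Ifitm3 or Ifitm6 in any of the 3 comparisons, where the lowest values of the list were -3.98, -4.75 and -4.18. Ifi27l2a, which gave the latter pair, fell further than Ifitm1 and Ifitm2 in CD45.2 cells at 32-weeks and further than Ifitm2 in CD45.1 cells.

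Among 13 genes of interferon receptors and signalling, 11 were lower in AΦ at 4-weeks, 9 at 32-weeks in CD45.2 cells and 11 in CD45.1 cells. Irf7, a transcription factor that is itself induced by interferon, showed the largest step (-4.41, -4.34 and -4.27), at 0.562 to 7.06 FPKM in AΦ and 23.3 to 84.7 in monocytes. Its highest AΦ values, 7.06 and 5.75 FPKM, were those of replicate 2 of the 4-weeks TR-AΦ. The chains of the type I receptor, Ifnar1 (-1.49 at 4-weeks) and Ifnar2 (-1.45), were lower as well, and Irf3 was higher at 4-weeks (0.50) and in CD45.2 cells at 32-weeks (0.77). Of 9 listed genes whose products bind or modify IFITM proteins 8 were tested. In the 3 comparisons 4, 3 and 5 of them were higher in AΦ and 1 was lower each time. Of all genes tested, 48.2%, 47.3% and 50.9% were called in either direction, and 25.5%, 23.7% and 23.8% were called lower. Cd9, a tetraspanin, was higher by 3.67, 3.92 and 4.81, Zmpste24, a protease that acts together with IFITM proteins, was higher by 0.77, 0.75 and 0.84, and Zdhhc20, which attaches palmitate to IFITM3, was lower by 0.65 (log2, 4-weeks, adjusted p = 0.0196).

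Between AΦ of the 2 origins at 32-weeks, BM-AΦ held more Ifitm3 than TR-AΦ. BM-AΦ had 4.49, 4.23 and 9.43 FPKM in FA mice and 7.71, 4.01 and 7.33 in PM2.5 mice, a mean of 6.20 ± 2.26 (SD, n = 6), and the 6 TR-AΦ libraries lay between 0 and 3.19. The groups did not overlap, which held for 1.37% of the 12665 genes tested, and the exact permutation test gave p = 0.00216, the smallest it allows. In limma over all AΦ libraries the log2 fold change was 1.79 (SE 0.82, 95% interval 0.02 to 3.55) with an unadjusted p of 0.0475 and an adjusted p of 0.659, so Ifitm3 did not pass the threshold, which 0.316% of genes did (7.45% at an unadjusted p under 0.05). With the spread taken from the 12 libraries compared, without the 4-weeks TR-AΦ, the adjusted p was 0.0353 and the call was made. The SE of the same log2 fold change was 0.30 there against 0.82 with the 4-weeks libraries, whose replicate 2 libraries hold the 2 highest Ifitm3 values of all AΦ. Under the other alternatives tried, Ifitm3 was not called in this comparison.

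Ifitm2 was at 53.3, 24.4 and 44.4 FPKM in BM-AΦ of FA mice and at 54.0, 48.2 and 47.7 in those of PM2.5 mice, against 26.7, 24.4 and 26.4 and then 29.01, 34.3 and 27.7 in TR-AΦ. One BM-AΦ library lay within the TR-AΦ range and the other 5 lay above it (exact permutation p = 0.013, limma log2 fold change 0.64, adjusted p = 0.802). Ifitm6 was at 0.759, 0 and 0.558 and then 1.05, 1.39 and 1.55 FPKM in BM-AΦ, and was listed at 0 in 5 of 6 TR-AΦ libraries with 0.774 in the other (exact permutation p = 0.0411, limma adjusted p = 0.892). The exact p values of these 3 genes are not adjusted, and Ifitm1, which was below the filter, overlapped as well (exact permutation p = 0.197). Of the other interferon genes, 0 of 13 receptor and signalling genes and 0 of 12 interferon-induced genes tested were called in this comparison.

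Of the monocyte markers 0 of 10 tested were called between the origins, and of the dendritic cell markers 0 of 2, with medians of the log2 fold change of 0.65 and 1.11 against 0.02 over all genes. Ccr2, the chemokine receptor of classical monocytes, was at 6.20 to 36.8 FPKM in BM-AΦ and 2.09 to 6.01 in TR-AΦ at 32-weeks (log2 fold change 1.89, adjusted p = 0.259 by limma), and Plac8 was at 0.949 to 3.62 in BM-AΦ and 0 to 1.49 in TR-AΦ. Ly6c2 was above 0 in 6 of 6 BM-AΦ libraries, at most 2.14 FPKM, and in 1 of 6 TR-AΦ libraries. The 12 monocyte markers summed to between 260 and 402 FPKM in BM-AΦ and between 113 and 385 in TR-AΦ, and 5 dendritic cell markers to between 5.54 and 19.6 in BM-AΦ and between 1.46 and 4.74 in TR-AΦ. The part of such cells in the Ifitm3 difference was not tested. Between the monocytes of both origins (CD45.1 over CD45.2) none of the 4 members was called (0.669% of genes were, and 0 members against 9.59% of genes had an unadjusted p under 0.05 by limma), with log2 differences of 0.20 for Ifitm1, 0.22 for Ifitm2, 0.22 for Ifitm3 and 0.41 for Ifitm6. The difference between the 2 cell types in the effect of origin was 1.57 for Ifitm3 (SE 0.88, adjusted p = 0.609), and 0 of 4 members were called or had an unadjusted p under 0.05, where 1.08% and 10.3% of genes were.

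The 4-weeks TR-AΦ were split by 1 library in each exposure. Ifitm3 was at 62.8 FPKM in replicate 2 of FA mice and at 47.1 in replicate 2 of PM2.5 mice, and at most 3.83 in the other 4 libraries. Ifitm6 was at 9.07 and 6.16 FPKM in the same libraries and at most 0.429 in the others, and Ifitm2 was at 77.1 and 95.2 against at most 28.9. Markers of several cell types were higher in these libraries as well. Plac8 was at 32.4 and 13.5 FPKM against at most 0.273, Ly6c2 at 16.5 and 4.78 and listed at 0 in the other 4 libraries, and Ccr2 at 31.6 and 34.3 against 3.67 to 6.44. The 10 neutrophil markers summed to 35.2 and 68.2 FPKM against 11.99 to 23.0, with Camp, Ltf, Ngp and Ly6g listed at 0 in all 6 libraries. The 8 lymphocyte markers summed to 10.02 and 6.79 FPKM against 1.01 to 1.78, and the 27 interferon-induced genes to 435 and 399 against 248 to 296. The dendritic cell markers summed to 3.82 in the FA library, within the 1.99 to 4.27 of the others, and to 17.5 in the PM2.5 library. The part of other cells in the Ifitm values of these libraries was not tested.

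**Figure D5:**
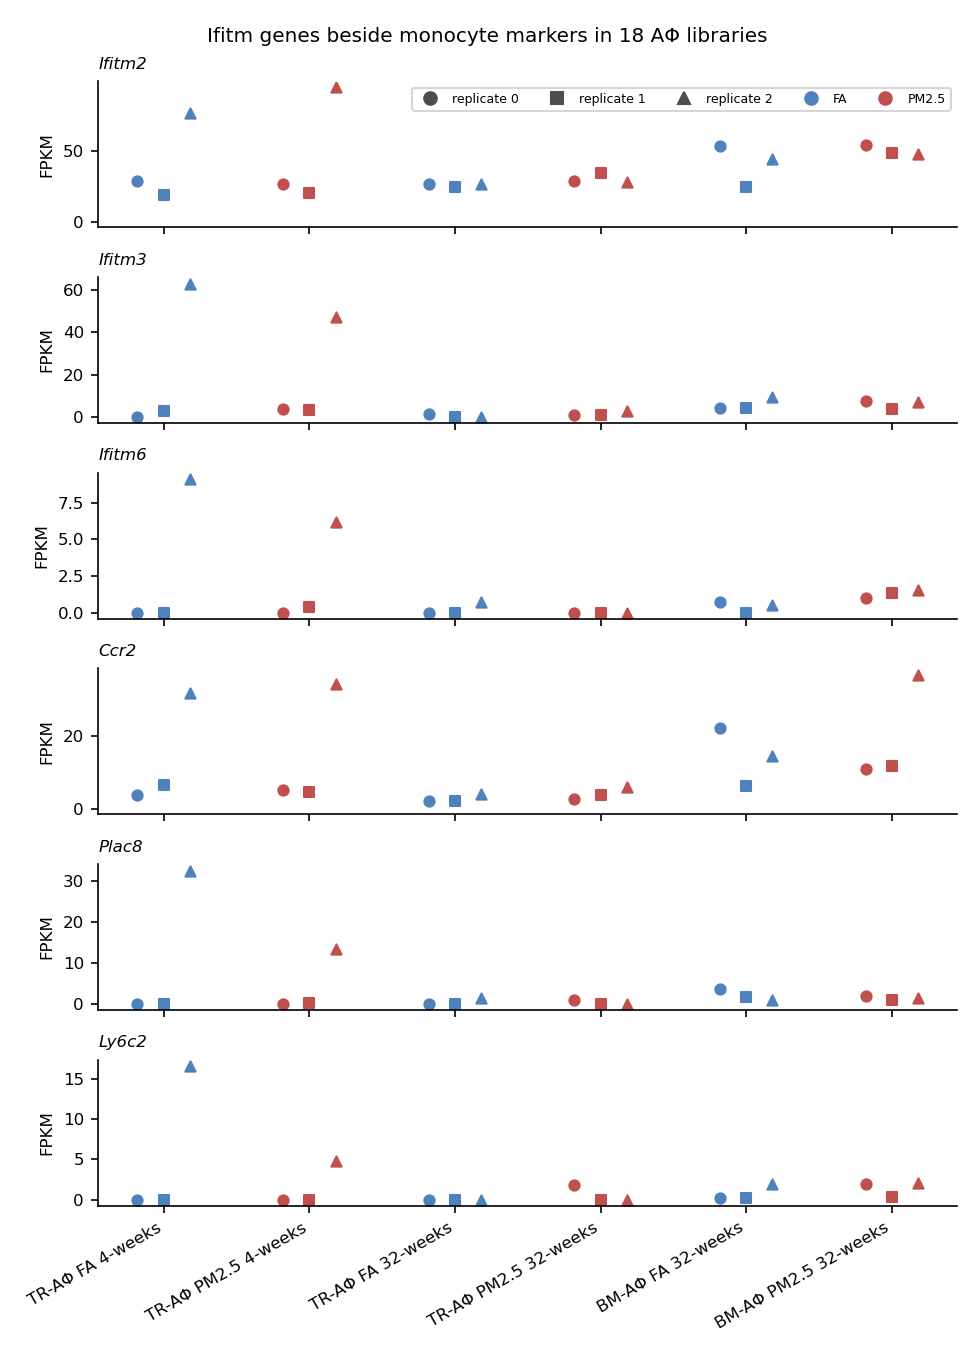
FPKM of Ifitm2, Ifitm3 and Ifitm6 and of the monocyte genes Ccr2, Plac8 and Ly6c2 in the 18 AΦ libraries, as points shaped by replicate number, with a linear axis of its own for each gene. The triangles of 4-weeks TR-AΦ lie above their groups for all 6 genes, and BM-AΦ lie above 32-weeks TR-AΦ for Ifitm3 at 4.01 to 9.43 against 0 to 3.19 FPKM.

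The time comparison in TR-AΦ depends on these libraries. From 4-weeks to 32-weeks the log2 fold change of Ifitm3 was -2.10 in FA mice (adjusted p = 0.49) and -1.92 in PM2.5 mice (adjusted p = 0.462), and 0 of 3 members tested were called, where 0.782% and 1.05% of genes were. At an unadjusted p under 0.05 the members again numbered 0, against 12.1% and 15.2% of genes. Without both replicate 2 libraries these values were -0.45 and -0.79. For Ifitm2 they turned from -0.43 to 0.13 in FA mice and from -0.30 to 0.36 in PM2.5 mice. In PM2.5 mice Ifitm3 did not overlap between the times (3.49 to 47.1 FPKM against 1.07 to 3.19), as in 18.3% of genes. Mice of 32-weeks were also older and further from their transplant than mice of 4-weeks. Exposure time, age and time since transplant therefore cannot be told apart, in AΦ or in monocytes.

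In CD45.2 monocytes no member passed the threshold between the times, and the log2 fold changes were all below 0. Ifitm1 was at 34.2, 13.6 and 29.3 FPKM in FA mice and at 22.03, 33.1 and 13.2 in PM2.5 mice at 32-weeks, against 47.2, 55.1 and 29.6 and then 52.0, 52.0 and 78.7 at 4-weeks. The times did not overlap in PM2.5 mice, which held for 20.4% of 12856 genes, and the log2 fold change was -1.44 (SE 0.42, 95% interval -2.35 to -0.54, unadjusted p = 0.00416, adjusted p = 0.0873). In FA mice it was -0.80 (adjusted p = 0.308). Ifitm6 gave -0.78 and -0.95, Ifitm3 -0.24 and -0.50, and Ifitm2 -0.07 and -0.54 in FA and PM2.5 mice, each with an interval that includes 0. In PM2.5 mice Ifitm2 did not overlap either, at 436 to 633 FPKM against 659 to 1178. Replicate 1 of PM2.5 mice at 32-weeks, where the AΦ markers summed to 1695 FPKM, held the lowest Ifitm3 (570), Ifitm2 (436) and Ifitm6 (84.8) of all monocyte libraries. With single libraries left out, the values of PM2.5 mice ran from -0.78 to -0.17 for Ifitm3 and from -1.36 to -0.45 for Ifitm6. They ran from -0.68 to -0.27 for Ifitm2 and from -1.75 to -1.12 for Ifitm1. Of all genes 7.21% were called in FA mice and 2.42% in PM2.5 mice, and 20.8% and 16.1% had an unadjusted p under 0.05, which of the members held for Ifitm1 in PM2.5 mice.

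In the same monocytes the interferon-induced genes had a median log2 fold change from 4-weeks to 32-weeks of -0.63 over 26 genes in FA mice and -0.58 in PM2.5 mice, against -0.05 and -0.03 over all genes. Of these, 3 were called in FA mice, Cmpk2 (-1.75), Zbp1 (-1.45) and Ifit1 (-1.38), and none in PM2.5 mice. Among the cell type markers, 4 of 12 monocyte markers and 1 of 6 neutrophil markers were called lower at 32-weeks in FA mice, and 0 of 12 and 0 of 6 in PM2.5 mice. Of 11 AΦ markers tested, 4 were higher and 3 lower at 32-weeks in FA mice (median log2 fold change 1.10), and 4 were higher and 0 lower in PM2.5 mice (1.41). Ear1, Plet1 and Atp6v0d2 were among those higher in both. The monocyte marker sum was 3694 to 4867 FPKM at 4-weeks and 1524 to 3773 at 32-weeks, and the neutrophil marker sum was 71.9 to 1159 and 33.1 to 66.8. The part of this in the Ifitm values was not tested. The difference of the time effect between AΦ and monocytes was not called for any member, where 7.88% of genes were, with 0.77 for Ifitm1 (adjusted p = 0.328) and -1.64 for Ifitm3 (adjusted p = 0.31). Without both replicate 2 libraries of TR-AΦ the Ifitm3 value was -0.25 (adjusted p = 0.798), and with single libraries left out it lay between -2.31 and -0.81. Of genes 20.3%, and 0 of 4 members, had an unadjusted p under 0.05 there.

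PM2.5 exposure was the question of the study, and 0 members passed the threshold between PM2.5 and FA in any of the 6 cell populations by limma. Few genes did, with 0.0079% called in TR-AΦ at 4-weeks, 0% in TR-AΦ at 32-weeks, 0.0158% in BM-AΦ, 0.00778% in CD45.2 monocytes at 4-weeks and 0% in both monocyte groups at 32-weeks. At an unadjusted p under 0.05 the members again numbered 0, against 2.94%, 3.13%, 2.05%, 2.12%, 4.74% (CD45.1) and 4.25% (CD45.2) of genes in the same order. In CD45.2 monocytes at 4-weeks the log2 differences were 0.48 for Ifitm1 (95% interval -0.43 to 1.39), 0.13 for Ifitm2, 0.23 for Ifitm3 (-0.47 to 0.94) and 0.33 for Ifitm6. In monocytes of 32-weeks Ifitm3 was at 770, 1269 and 1237 FPKM in FA mice and 1077, 854 and 1178 in PM2.5 mice for CD45.1 cells, and the groups overlapped for CD45.2 cells too, with log2 differences of -0.05 (-0.76 to 0.66) and -0.02 (-0.73 to 0.69). The intervals of Ifitm3 in monocytes thus span changes of less than 1 log2 unit either way, and those in AΦ are far wider.

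In AΦ the Ifitm3 log2 difference between PM2.5 and FA was 0.66 at 4-weeks (95% interval -1.84 to 3.15; 1.19 without both replicate 2 libraries) and 0.85 at 32-weeks in TR-AΦ (-1.65 to 3.34), and 0.09 in BM-AΦ (-2.40 to 2.59). The groups were apart for a pair of genes, Ifitm2 in TR-AΦ at 32-weeks (27.7 to 34.3 FPKM in PM2.5 mice against 24.4 to 26.7 in FA mice) and Ifitm6 in BM-AΦ (1.05 to 1.55 against 0 to 0.759). In these comparisons 5.98% and 6.44% of genes did not overlap, and 3 libraries against 3 allow no exact p below 0.1. No member tested passed the test of a difference in the exposure effect between the times or between the origins (adjusted p = 1 for each by limma), where 0.0079% and 0.0158% of genes did. At an unadjusted p under 0.05 these counts were 0 members against 3% and 1.89% of genes. None of the tested genes of the interferon, CD225 and partner lists was called for exposure in any population. In AΦ only 12 of 27 interferon-induced genes and 1 of 9 CD225 genes were tested, so the others could not be called there. With Cuffdiff, which needs reads, the study itself called more genes for exposure in TR-AΦ and BM-AΦ than limma did here. It reported several antiviral genes, Oasl, Ifih1 and Isg15 among them, as lower in TR-AΦ of PM2.5 mice at 4-weeks.

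The genes whose levels ran most like the members over the 36 libraries included the monocyte markers Ly6c2, Plac8 and Itgam. On the log2(FPKM + 1) scale Ifitm3 ran closest to Ly6c2 and Plac8 (Pearson r 0.985 for both) and to Fyb (0.984), Ifitm6 to Nhsl2 (0.994), Plac8 (0.992) and Ly6c2 (0.991), Ifitm2 to Sorl1 (0.993), Itgam and Mefv (0.986 for both), and Ifitm1 to Cep85l (0.975), Hdac7 and Utrn (0.974 for both). Among themselves the members had r between 0.953 and 0.988. No member overlapped between the cell types, so r over the 36 libraries mainly measures that gap. Likeness within the monocyte libraries alone was not computed. Within the 18 AΦ libraries the likeness was looser. There Ifitm3 ran with BC035044 (0.877), Adgre4 (0.870) and Slfn5 (0.851), Ifitm6 with BC035044 (0.943), Zc3h12c (0.933) and Ets1 (0.932), and Ifitm2 with Fyb (0.928), Sema4d (0.918) and Prkcb (0.913). Ifitm3 correlated with Ifitm2 at 0.772 and with Ifitm6 at 0.830 in AΦ. Over the 16 AΦ libraries without replicate 2 of the 4-weeks TR-AΦ these were 0.502 and 0.468, and r with the genes just named lay between 0.621 and 0.638 for Ifitm3, 0.753 and 0.812 for Ifitm6, and 0.854 and 0.866 for Ifitm2. These values describe libraries that share their sort and, in part, the replicate 2 libraries named above, and Ifitm1 was below the filter in AΦ.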

How the data were processed

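RNA of sorted AΦ and monocytes was made into libraries with a stranded SMART-Seq kit. The authors aligned reads to mm10 with STAR and deposited FPKM per gene from Cufflinks, tools that the submitters' processing notes name too. Pairwise Cuffdiff comparisons by the authors were not used in the tests. All 36 columns were matched to samples by their titles.

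Values entered limma 3.58.1 (R 4.3.3) on the log2(FPKM + 1) scale, with 1 mean per group and a variance trend. A gene was tested where its mean over a model's libraries reached 1 FPKM, 12665 in the 18 AΦ libraries, 12856 in the 18 monocyte libraries and 13307 in all 36. Comparisons share libraries. Benjamini-Hochberg adjustment ran over all genes tested in a comparison, at a threshold of 0.05, and libraries were unpaired. Exact permutation tests were two-sided, and their smallest p is 0.1 for 3 against 3 and 0.00216 for 6 against 6 libraries. The study drew 3 mice per exposure and time, so AΦ and monocytes of both origins can come from the same animals. The labels tie no library to an animal, the tests treat libraries as independent, and p-values measure the spread between libraries.

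The members and gene lists were chosen with earlier results of these data known. Beside the members the text names, per list, up to 3 genes with the lowest p in a comparison, genes within 200 kb, and the 3 genes of highest Pearson r per member. Other listed genes were named after their values were seen. The marker lists also covered red cells, endothelium, epithelium and lymphocytes. Red cell markers summed to at most 157 FPKM in a library, endothelial markers to 47.5, epithelial markers to 178 and lymphocyte markers to 21.4. Where a gene symbol had more than 1 row, the row with the highest mean was used. The alternatives are named in the closing section. Coding sequences and transcripts came from GENCODE, aligned with Biopython 1.88, and plots used matplotlib 3.10.9 (Python 3.11.15). The procedure was tested on simulated data.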

Additional observations from a re-analysis of the deposited data

How the results depend on the processing

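Under the alternatives tried, all 4 members stayed lower in AΦ than in monocytes and past the threshold in the 3 comparisons of cell type, under another pseudocount (0.1), without the filter, with quantile normalization, with library sums made equal, with the libraries compared alone, and without each single library. The count of members called moved in 1 comparison, from 0 to 1 for BM-AΦ against TR-AΦ with only the libraries compared, where Ifitm3 passed at a log2 fold change of 1.79. Over its other alternatives the adjusted p of Ifitm3 there lay between 0.109 and 0.897. The replicate numbers were treated as names. Same-numbered libraries of the same exposure and time deviated together little (r between -0.0415 and 0.155 over 42 pairs), and in 0 of 14 pairs of groups were all correlations over 0.1. With the replicate block the counts were again 4 in the 3 comparisons of cell type and 0 elsewhere. In 26 of 42 cases a library correlated best with its own number, where numbers without any tie would give about 1 in 3. Over all pairs of groups, also those of unlike exposure or time, this held in 101 of 198 cases. Libraries of unlike exposure or time come from different mice. Whether same-numbered libraries of the same exposure and time share an animal was not tested, nor whether any same-numbered libraries share a batch. Leaving out both replicate 2 libraries of 4-weeks TR-AΦ together was chosen after the data were seen.

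Values that passed no test changed sign in places, and the cause was not tested. With quantile normalization this held for Ifitm6 in PM2.5 against FA in TR-AΦ at 4-weeks (-0.16) and Ifitm3 in CD45.2 monocytes at 32-weeks (0.092). With rescaled sums it held for the same Ifitm6 value (-0.13), Ifitm2 over time in CD45.2 monocytes of FA mice (0.16) and Ifitm6 in the interaction of cell type and time (0.034). Without both replicate 2 libraries the values were -0.0081 for Ifitm2 in PM2.5 against FA in TR-AΦ at 4-weeks, 0.13 for Ifitm2 and 0.28 for Ifitm6 over time in TR-AΦ of FA mice, 0.36 for Ifitm2 in those of PM2.5 mice, 0.55 for Ifitm2 and 0.88 for Ifitm6 in the interaction of cell type and time, and -0.35 for Ifitm3 in that of exposure and time.

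Log2 values whose sign turned with single libraries left out ran as follows. Ifitm2 ran from -0.57 to 0.65, Ifitm3 from -0.68 to 2.31 and Ifitm6 from -0.85 to 1.12 for PM2.5 against FA, TR-AΦ, 4-weeks. Ifitm3 ran from -0.085 to 0.41 for PM2.5 against FA, BM-AΦ, 32-weeks. Ifitm2 ran from -0.14 to 0.40 for PM2.5 against FA, CD45.2 monocytes, 4-weeks. Ifitm1 ran from -0.65 to 0.071, Ifitm3 from -0.29 to 0.081 and Ifitm6 from -0.36 to 0.54 for PM2.5 against FA, CD45.1 monocytes, 32-weeks. Ifitm1 ran from -0.55 to 0.17, Ifitm2 from -0.66 to 0.014, Ifitm3 from -0.31 to 0.30 and Ifitm6 from -0.25 to 0.66 for PM2.5 against FA, CD45.2 monocytes, 32-weeks. Ifitm2 ran from -0.85 to 0.13 and Ifitm6 from -1.39 to 0.28 for 32-weeks against 4-weeks, TR-AΦ, FA. Ifitm2 ran from -0.73 to 0.36 for 32-weeks against 4-weeks, TR-AΦ, PM2.5. Ifitm2 ran from -0.42 to 0.25 for 32-weeks against 4-weeks, CD45.2 monocytes, FA. Ifitm2 ran from -0.27 to 0.27 and Ifitm6 from -0.39 to 0.44 for cell type by time, CD45.2. Ifitm1 ran from -0.021 to 0.38 for cell type by origin, 32-weeks. Ifitm2 ran from -0.43 to 0.79, Ifitm3 from -1.47 to 1.53 and Ifitm6 from -1.39 to 0.58 for exposure by time, TR-AΦ. Ifitm2 ran from -0.19 to 0.36 for exposure by origin, AΦ, 32-weeks.

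Spearman coefficients of the like genes were lower than Pearson r, from 0.732 to 0.956. Depth is unknown for FPKM, so no counting error can be given for the low values in AΦ.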
